A study of Mus musculus with 12 samples.

Results

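Major urinary proteins (MUPs) are small lipocalins, barrel-shaped carriers of hydrophobic ligands, which the mouse liver secretes into the blood and the kidney passes into urine, where they bind and slowly release volatile pheromones. Liver expression of many Mup genes is higher in adult males, in which growth hormone is released in pulses that activate STAT5b through the growth hormone receptor and JAK2. The genes arose by repeated duplication, so most copies are nearly identical, and a few at the edges of the cluster differ enough in sequence to be told apart. The 6 genes described here, Mup3, Mup4, Mup5, Mup6, Mup20 and Mup21, are such distinct copies. They were chosen by symbol, with earlier results of these data known, from 54232 genes in the count table, which also holds 16 other protein-coding Mup genes and 27 Mup pseudogenes.

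Livers of male C57BL6/J mice, 5 of them pair-fed (PF) and 7 alcohol-fed (AF), from a model of alcohol-associated steatohepatitis (ASH) gave RNA-seq data, 1 library from the whole liver of each mouse. All mice received a high-fat liquid diet by the intragastric route for 8 weeks, and AF mice also received ethanol at up to 27 g/kg/day with a weekly binge of 5 g/kg. The study's methods also name a solid Western diet rich in cholesterol and saturated fat, or chow, eaten before the intragastric feeding, and the Western diet as a part of intake during it, and the labels do not give the solid diet of each mouse. The labels give an age of 8 weeks for every mouse, without saying whether at the start or the end of feeding, and no genetic change in either group. Each library held 24129900 to 30578639 reads on genes, and TMM factors, which correct for library composition, were 0.832 to 0.901 in PF and 0.880 to 1.36 in AF livers. Of 14168 genes tested with edgeR, 39.8% differed between the groups at an adjusted p below 0.05, 17.8% lower and 22.0% higher in AF livers.

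All 22 protein-coding Mup genes lie on chromosome 4 of GRCm38, within the span chr4:59956804-62150863. The members sit at its ends. Mup4 (ENSMUSG00000041333, chr4:59956804-59960710, minus strand) and Mup6 (ENSMUSG00000078689, chr4:59964294-60007274, plus strand) come first. Mup5 (ENSMUSG00000058523, chr4:61831319-61835233), Mup20 (ENSMUSG00000078672, chr4:62050234-62054158), Mup3 (ENSMUSG00000066154, chr4:62083476-62087342) and Mup21 (ENSMUSG00000066153, chr4:62147932-62150863) close the cluster, all on the minus strand. No other annotated gene overlaps any of them.

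The sequences below show how far the members can be told apart by short reads, which decides how much weight their separate counts can bear. The 60 bases are coding bases 70 to 129 of Mup20 and the aligned stretch of the other genes, taken from GENCODE M21 transcripts where the members differ at the most positions. Capitals mark bases that differ from Mup20, and Mup11, one of the nearly identical central copies, is shown for comparison.
Mup20: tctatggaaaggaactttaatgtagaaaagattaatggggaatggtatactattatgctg
Mup3: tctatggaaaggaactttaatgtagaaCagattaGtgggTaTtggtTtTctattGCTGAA
Mup21: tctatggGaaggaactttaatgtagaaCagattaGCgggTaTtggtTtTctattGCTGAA
Mup5: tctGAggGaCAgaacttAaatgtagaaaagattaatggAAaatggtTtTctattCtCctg
Mup6: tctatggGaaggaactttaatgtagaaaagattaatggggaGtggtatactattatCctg
Mup4: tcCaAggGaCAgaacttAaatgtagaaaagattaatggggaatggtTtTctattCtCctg
Mup11: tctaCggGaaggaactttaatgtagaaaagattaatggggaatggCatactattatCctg

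In this stretch Mup3 and Mup21 differed from Mup20 at 12 and 14 positions, Mup5 at 12, Mup4 at 10, Mup11 at 4 and Mup6 at 3. Over the whole coding sequence the 15 pairs of members were 82.4 to 94.8% identical, with Mup3 and Mup21 the closest pair and Mup4 and Mup5 next at 92.0%. Among the other coding Mup genes, the closest copy was 94.1% identical for Mup19 and 98.9 to 99.8% identical for the other 15. Of all 100-base windows of a gene's annotated transcripts, the share found in no other gene was 100% for Mup4 and Mup6, 98.7% for Mup5, 97.8% for Mup3, 95.5% for Mup21 and 61.2% for Mup20. The Mup20 windows that were not its own were shared with the pseudogene Mup-ps19 (38.8%). For Mup7 and Mup11, 23.9% and 29.4% of 100-base windows were their own. Shares were lower in 50-base windows. They were 96% for Mup6, 87.6% for Mup4, 86.7% for Mup3, 82.9% for Mup5, 80.7% for Mup21 and 49.5% for Mup20. Neither the read length nor the handling of reads that align to several places is given in the sources used here. For the central copies, and in part for Mup20, the split of reads between genes is therefore uncertain. How far this reaches the other members depends on the read length. The split is also uncertain for the few reads of Mup5 and for Mup21. Mup5 shared 1.33% of its 100-base windows with Mup14, which had 38114 reads over the PF livers against 100 for Mup5. Mup21 shared 4.50% of its 100-base and 17.8% of its 50-base windows with Mup3. Mup3 had 783896 reads over the PF livers against 17995 for Mup21.

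Promoters are shown because the members were lower together and because 2 of those shown belong to members with high counts (Mup3 and Mup21) and 2 to genes near the limit of detection (Mup4 and Mup6). RefSeq (GRCm38.p6) gave a promoter for 4 of the 6 members. Each sequence is the 250 bases before the annotated start, read 5′ to 3′ on the gene's strand. The start is that of RefSeq, which lies inside the GENCODE gene span given above in all 4, by a short distance in Mup3, Mup4 and Mup21 and far inside it in Mup6, and distances from the start depend on this choice. Capitals mark ATCAAT, the core motif of the hepatocyte factor Onecut1, and TATAA, the core of a TATA box, each searched on both strands, and no marked matches overlap each other.
Mup3 (chr4:62087318-62087567, minus strand): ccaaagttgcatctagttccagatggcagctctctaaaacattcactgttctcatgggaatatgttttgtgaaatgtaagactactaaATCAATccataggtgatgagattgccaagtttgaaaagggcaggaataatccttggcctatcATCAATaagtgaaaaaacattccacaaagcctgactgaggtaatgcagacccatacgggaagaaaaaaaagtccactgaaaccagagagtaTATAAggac
Mup21 (chr4:62150842-62151091, minus strand): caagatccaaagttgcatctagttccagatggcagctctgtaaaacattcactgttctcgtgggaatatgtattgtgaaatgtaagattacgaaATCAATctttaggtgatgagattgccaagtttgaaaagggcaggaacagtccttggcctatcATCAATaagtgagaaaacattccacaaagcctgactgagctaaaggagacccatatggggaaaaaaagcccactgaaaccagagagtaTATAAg
Mup4 (chr4:59960668-59960917, minus strand): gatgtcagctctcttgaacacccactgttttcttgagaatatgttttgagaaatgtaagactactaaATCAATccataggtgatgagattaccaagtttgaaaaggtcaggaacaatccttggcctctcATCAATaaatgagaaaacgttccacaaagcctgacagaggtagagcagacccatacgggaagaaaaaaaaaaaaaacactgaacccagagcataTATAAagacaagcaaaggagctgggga
Mup6 (chr4:60003231-60003480, plus strand): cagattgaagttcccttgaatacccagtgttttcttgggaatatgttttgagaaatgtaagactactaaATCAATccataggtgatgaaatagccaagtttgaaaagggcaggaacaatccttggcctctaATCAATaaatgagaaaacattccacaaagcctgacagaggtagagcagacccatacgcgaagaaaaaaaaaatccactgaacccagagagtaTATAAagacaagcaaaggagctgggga

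ATCAAT was present in 2 copies in each of these 4 promoters, with first bases 162 and 100 bases before the start in Mup3 and 183 and 121 bases before it in Mup4. With the 50 bases after the start included, 14 of 14 Mup promoters in RefSeq held ATCAAT, against 7.54% of all 32851 promoters of that length, and 13 of 14 held TATAA, against 24.9%. The core STAT motif TTCNNNGAA was in 0 of the 14 windows and in 8.3% of all promoters, and the same motif with 1 more base in its gap was in 5 of the 14, Mup4 and Mup6 among them, and in 6.95% of all promoters. The promoters of Mup3 and Mup21 were 89.1% identical and those of Mup4 and Mup6 90.9%, whereas Mup3 and Mup4 shared 74.9%. TATAA began 9 and 6 bases before the start in Mup3 and Mup21 and 27 bases before it in Mup4 and Mup6. The 14 Mup promoters belong to genes that arose by duplication, so they are not independent of each other. Their motif counts are descriptions. A match is a description of the sequence, not a bound site.

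Levels between genes are compared as RPKM, reads per kilobase of exon scaled to library size. In PF livers Mup20 had 7958 ± 1449 RPKM (SD, n = 5), Mup3 had 6478 ± 1418, Mup21 had 232 ± 58.5, Mup5 had 0.958 ± 0.280, Mup6 had 0.384 ± 0.111 and Mup4 had 0.112 ± 0.0848. Mup20 and Mup3 did not differ beyond their spread, since their per-length ratio ran from 0.837 to 1.58 over the PF livers. Among all genes of a PF library, Mup20 ranked 12 to 23 by read count and Mup3 ranked 12 to 27. Mup5, Mup6 and Mup4 formed the low end, with at most 25 reads in any library. In AF livers the order of the mean levels was the same, with Mup20 at 1487 ± 1733 RPKM (SD, n = 7) and Mup3 at 1196 ± 1498. SDs in AF livers exceeded the means for Mup20, Mup3, Mup21 and Mup4.

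Mup20 encodes darcin, the male pheromone protein of mouse urine. Its PF levels were 6990, 6914, 6019, 7385 and 9619 CPM (counts scaled to library size with TMM) in PF1 to PF5. In AF1 to AF7 they were 226, 2690, 748, 433, 679, 4495 and 388 CPM. Every AF liver was below every PF liver, with AF6 and AF2 well above the other AF livers. The log2 fold change of AF against PF was −2.42 (SE 0.654, adjusted p = 0.0109 in edgeR), a 5.35-fold lower mean, and the exact two-sided permutation test over the 792 splits of the livers gave p = 0.00253 (smallest possible 0.00126). Without AF6 the log2 fold change was −3.10.

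Mup3 had a wider relative spread between AF livers than Mup20. It had 5996, 9513, 5880, 6206 and 6999 CPM in PF1 to PF5. The AF livers had 39.9, 3977, 173, 242, 171, 3018 and 1320 CPM in AF1 to AF7. Again all 7 AF livers lay below the PF livers, and here AF7 stood with AF2 and AF6 rather than with the low livers. The log2 fold change was −2.44 (SE 0.894, edgeR adjusted p = 0.0443, exact permutation p = 0.0101). This call sat close to the threshold, and leaving out any 1 of the 5 PF livers, AF3, AF4, AF5 or AF7 ended it (adjusted p up to 0.0832), while without AF1, AF2 or AF6 it held (log2 fold change −3.08 without AF2).

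Mup21, the closest relative of Mup3 and its neighbour at the end of the cluster, had the largest fitted change of the 4 members tested. Its level was 101, 154, 156, 162 and 213 CPM in PF1 to PF5. In AF1 to AF7 it was 0.389, 29.5, 0.759, 0.844, 0.627, 43.1 and 4.96 CPM, so that 4 of the 7 AF livers were under 1 CPM. The groups did not overlap. How much of these low AF levels came from sequence shared with Mup3 was not tested. The log2 fold change was −3.79 (SE 1.03, edgeR adjusted p = 0.0115, exact permutation p = 0.00253), a 13.8-fold lower fitted level, and −4.70 without AF6.

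Mup5 and Mup4 are known from salivary, lacrimal and nasal glands rather than from liver. Mup5 had 21, 19, 11, 24 and 25 reads in PF1 to PF5 and 2, 9, 1, 3, 0, 10 and 5 reads in AF1 to AF7. All AF livers were again below all PF livers after scaling, with AF2 and AF6 highest. The log2 fold change was −2.59 (SE 0.582, edgeR adjusted p = 0.00417, exact permutation p = 0.00253). Of 10 salivary and lacrimal gland markers, 7 had 0 reads in every library, which allows up to 3 reads in each. Aqp5 was at 0.0167 CPM in PF and 0.128 CPM in AF livers, and Amy1, which liver also expresses, was the 1 that could be tested and was lower (−0.91, adjusted p = 0.00175 in edgeR). Muc10 was not found in the table under this symbol.

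Mup6 and Mup4 did not reach the count that the edgeR filter asks for. Mup6 had 5, 9, 7, 12 and 11 reads in PF1 to PF5 and 4, 4, 6, 2, 11, 2 and 3 reads in AF1 to AF7. Here AF5 lay within the PF range and the other 6 AF livers lay below it. The exact permutation test gave p = 0.00631. Mup4 had 12 reads over the 5 PF livers and 1 read, in AF2, over the 7 AF livers, a ratio of depth-adjusted counts of 18.1 (95% interval for counting error 2.68 to 774). When every gene with at least 1 read was tested, Mup4 (log2 fold change −3.58, adjusted p = 0.00825) and Mup6 (−1.38, adjusted p = 0.0290) were also lower, so that 6 of 6 members were called at that filter, against 8.45% of 26727 genes called lower.

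**Figure D1:**
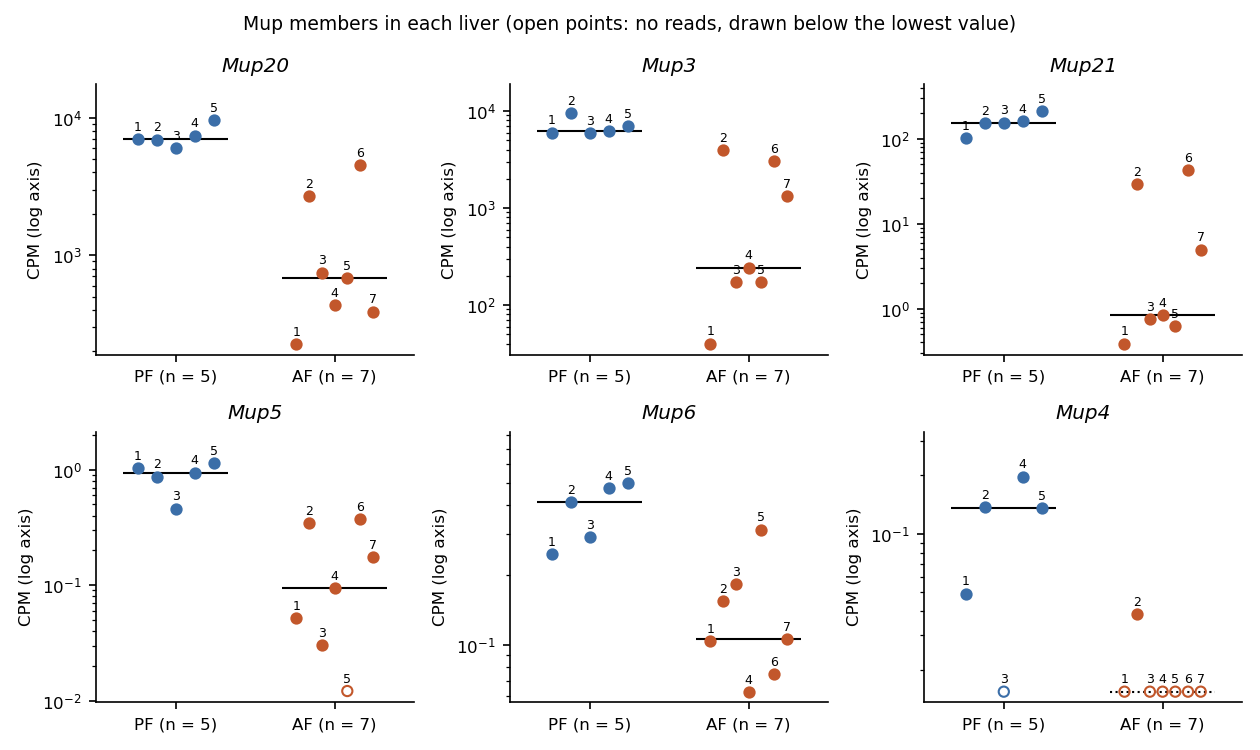
CPM of each member in every liver, on log axes whose range differs between panels. Blue points are the 5 PF livers, orange points the 7 AF livers, numbers are the replicate numbers, bars are group medians (dotted where the median is 0), and open points had no reads and are drawn below the lowest value. For Mup20, Mup3, Mup21 and Mup5 no AF liver reaches the PF range, and AF2 and AF6 are the highest AF livers.

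With the usual filter, 4 of the 6 members were tested and these 4 were called lower, beside 17.8% of all genes. The 4 also had every AF liver below every PF liver, beside 9.49% of all genes. A gene as low as Mup5 enters the test through the group in which it is higher, so the count over tested members is a description. Their median log2 fold change was −2.51, beside 0.04 over all genes tested. In bulk liver RNA, fewer cells of a type and less RNA per cell cannot be told apart, and reads on the members relative to the hepatocyte gene Alb are given with the shares below.

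The AF livers differed from each other more than PF livers did. PF levels of Mup20 and Mup3 spanned 1.60-fold and 1.62-fold between the lowest and highest liver, and AF levels spanned 19.9-fold and 99.6-fold. As a percentage of the PF median, Mup20 was retained at 64.3% in AF6 and 38.5% in AF2 but at 3.24% in AF1. Mup3 was retained at 64.1% in AF2, 48.6% in AF6 and 21.3% in AF7 but at 0.644% in AF1. For Mup21 the values were 27.7% in AF6, 18.97% in AF2 and 3.19% in AF7, with 0.250 to 0.543% in the other 4 livers. AF1 was thus the lowest liver for each of these 3 genes. In AF2 and AF7 more was retained of Mup3 than of Mup20, and in the other 5 livers more of Mup20. AF7 kept 5.55% of Mup20.

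**Figure D2:**
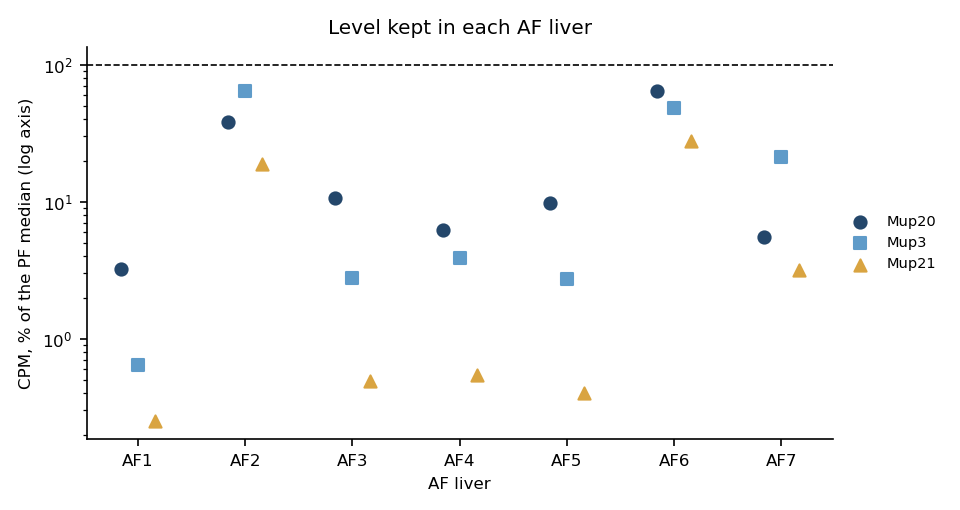
Level of Mup20 (circles), Mup3 (squares) and Mup21 (triangles) in each AF liver, as a percentage of the PF median CPM on a log axis, with the PF median as a dashed line at 100%. Mup21 is the lowest of the 3 in every AF liver, and Mup3 lies above Mup20 only in AF2 and AF7.

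Whether members changed by different amounts was tested on ratios within a liver, which need no scaling between libraries. Mup20 counts relative to Mup21 exceeded every PF value in each of the 7 AF livers, and the group means differed by 2.65 on the log2 scale (exact permutation p = 0.0114). The same held for Mup3 relative to Mup21, with a difference of means of 1.94 (exact permutation p = 0.00379). As differences of edgeR log2 fold changes, these were smaller, 1.37 for Mup20 and 1.35 for Mup3. The ratio of Mup3 to Mup21 is limited by the sequence that these 2 genes share. Over the 15 pairs of members, 5 had an unadjusted permutation p under 0.05, all of them pairs with Mup21, but 0 passed Benjamini-Hochberg adjustment (exact permutation tests, adjusted p = 0.053 for each of the 5). In the pair of Mup4 and Mup21 the AF ratios rest on the pseudocount, since Mup4 had 0 reads in 6 of the 7 AF livers, and ratios with the few reads of Mup5 and Mup6 depend on it too. Without AF6, 6 pairs passed, without AF2 4, without PF1 3, and with a pseudocount of 2 reads in place of 0.5, 5. Mup3 and Mup20 did not differ detectably in their change (difference −0.71, exact permutation p = 0.347, adjusted 0.387). Their ratio was far more variable in AF livers, with an SD of 1.56 on the log2 scale against 0.348 in PF livers.

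Reads on all Mup genes together took 1.65 ± 0.225% of the counts in PF livers (SD, n = 5) and 0.292 ± 0.324% in AF livers (SD, n = 7; range 0.0380 to 0.792%; exact permutation p = 0.00253). The members took 1.25 ± 0.171% in PF and 0.265 ± 0.286% in AF livers, and the other coding Mup genes 0.397 ± 0.137% and 0.0269 ± 0.0386%. A share summed over the whole family does not depend on how counted reads were divided among its copies, but it does on whether reads with several alignments were counted, and the shares of the members and of the other genes depend on both. In all, 7 of 7 AF livers were below all PF livers for each of these sums. Summed as 1 feature, all Mup genes had a log2 fold change of −2.69 (SE 0.734, edgeR adjusted p = 0.0113). Relative to Alb (albumin), reads on the members were 14.96 to 17.4% in PF livers, and 0.595 to 11.6% in AF livers.

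Mup20 made up 33.1 to 45.5% of Mup reads in PF livers. In AF1, AF3 and AF5 it made up 81.1, 79.6 and 77.6%, and in AF7 21.1%, where Mup3 took 71.8%. The share of Mup genes other than Mup20, Mup3 and Mup21 was 16.02 to 31.95% in PF and 1.95 to 12.4% in AF livers. What remained of Mup reads in AF livers was therefore mostly Mup20 or Mup3, in proportions that differed between mice.

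**Figure D3:**
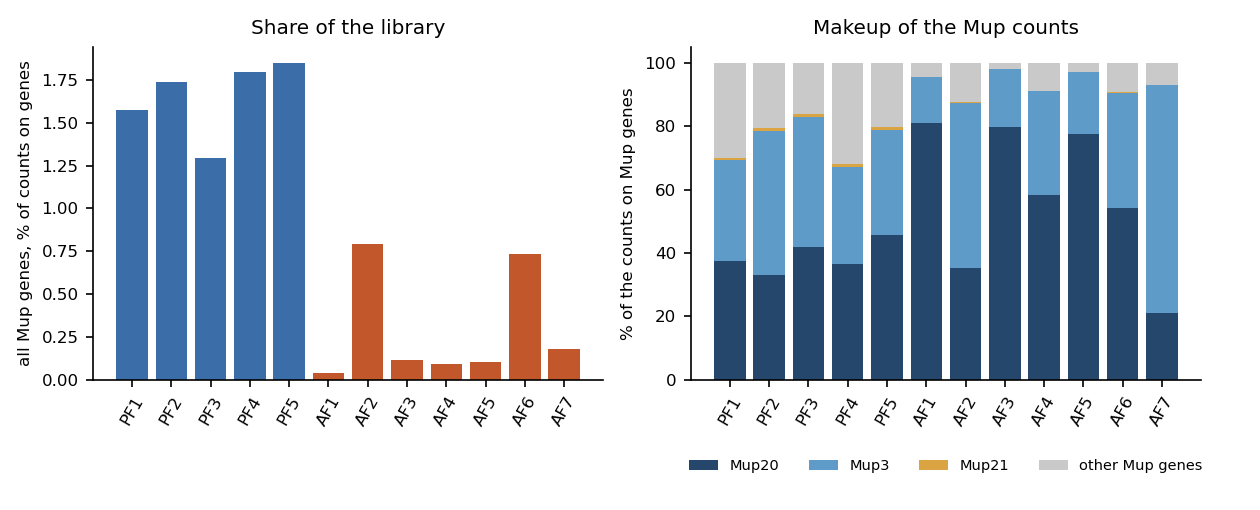
Left, reads on all Mup genes as a percentage of the counts on genes in each library (bars from 0). Right, the makeup of those reads by gene in percent. The AF bars on the left range from 0.0380 to 0.792% against 1.29 to 1.85% in PF livers, and on the right the portion of other Mup genes is narrower in every AF liver than in any PF liver.

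Of the 16 other coding Mup genes, 13 were tested and 12 were lower, beside 17.8% of all genes, with a median log2 fold change of −3.14. In 8 of them all AF livers lay below all PF livers, beside 9.49% of all genes. Here too, genes with few reads, such as Mup8, enter the test through the group in which they are higher, so these counts are descriptions. The most abundant ones were Mup7, at 1713 ± 721 CPM in PF and 28.1 ± 46.0 CPM in AF livers (log2 fold change −5.93, SE 1.22, edgeR adjusted p = 0.00245), Mup17 (−3.10, SE 1.13, adjusted p = 0.0427, up to 0.0835 over the alternatives, with the call lost without any 1 PF liver, AF1, AF3, AF4, AF5 or AF7) and Mup11 (−4.93, SE 1.05, adjusted p = 0.00313). Mup18 missed the threshold by a small margin (−1.96, SE 0.743, adjusted p = 0.0504). It was called lower in DESeq2 (adjusted p = 0.0454), in limma-voom (−3.15, adjusted p = 0.00251), with RLE factors or library totals, and without AF2 (−2.53, adjusted p = 0.0174) or AF6 (−2.49, adjusted p = 0.0149). Without AF2, Mup7 was at −7.17, Mup17 at −3.88 and Mup11 at −5.52, and without AF6 Mup11 was at −5.57. Of 27 pseudogenes, 8 had no reads, 6 were tested and 2 were lower, beside 17.8% of all genes. When every gene with at least 1 read was tested, 7 pseudogenes were lower, beside 8.45% of all genes. Values of single central copies and of pseudogenes carry the uncertainty of shared reads described above. Mup-ps19, 1 of the 2 pseudogenes lower at the usual filter, shared 76.7% of its 100-base windows with Mup20. It had 541 reads over the PF livers, against 838596 for Mup20.

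**Figure D4:**
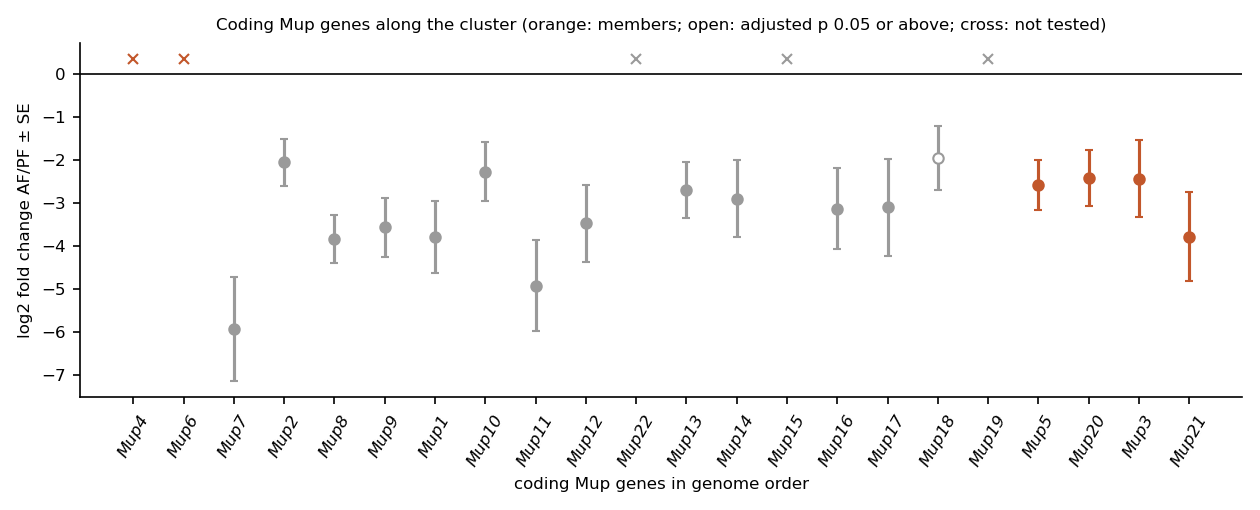
Log2 fold change of AF against PF (points, with SE bars) for the 22 coding Mup genes in genome order. Orange points are members, open points missed the threshold and crosses mark genes that were not tested. Every gene tested has a negative value, from −5.93 for Mup7 to −1.96 for Mup18.

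Of 22 tested genes of chromosome 4 listed as neighbours, 6 were higher and 3 lower, with a median log2 fold change of 0.09. These are shares near those over all genes tested, 22.0% higher and 17.8% lower. Zfp37, a zinc finger gene 38.7 kb beyond the end of the cluster, was higher (log2 fold change 1.59, SE 0.334, edgeR adjusted p = 0.00282). Snx30, a sorting nexin 52.1 kb before it, was not called (0.15, adjusted p = 0.295), and the copper importer gene Slc31a1 was lower (−0.67, adjusted p = 0.00356). Most listed neighbours lay within 1 Mb, and the farthest, Zfp189, was 10425 kb away.

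In the growth hormone and STAT5 pathway, 14 of 15 listed genes were tested, of which 5 were lower and 2 higher, beside 17.8% lower and 22.0% higher over all genes tested. Ghr, the growth hormone receptor, was at 762 ± 44.3 CPM in PF and 239 ± 109 CPM in AF livers (log2 fold change −1.67, SE 0.277, edgeR adjusted p = 0.000694). Igf1, the circulating growth factor induced by growth hormone, was lower (−0.79, SE 0.156, adjusted p = 0.00201), as were Igfals, which stabilises IGF1 in blood (−1.07), Bcl6, a repressor that opposes STAT5 at shared sites (−1.32), and Stat5b (−0.38, adjusted p = 0.0324). The feedback inhibitors Socs2 (−0.65, adjusted p = 0.145) and Cish (−0.48, adjusted p = 0.324) and the kinase gene Jak2 (0.03, adjusted p = 0.874) did not pass. The higher genes were Igfbp3, a binding protein of IGF1 in blood (1.08, adjusted p = 0.00127), and the phosphatase gene Ptpn1 (0.38, adjusted p = 0.0218). The call on Stat5b was lost under upper-quartile factors, library totals and several leave-one-out fits. Between AF livers, Ghr was at 398 CPM in AF6, 357 in AF2, 283 in AF7, 191 in AF5, 188 in AF3, 144 in AF4 and 110 in AF1. The summed Mup members were at 7557, 6697, 1713, 851, 921, 676 and 267 CPM in the same livers, an order that differs only in AF3 and AF5. Other genes of the list ran in other orders. In the same livers Igf1 was at 499, 339, 365, 244, 289, 300 and 290 CPM. Stat5b was at 25.1, 37.4, 33.4, 22.3, 28.8, 27.2 and 25.8 CPM. These are descriptions and were not tested.

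Of 16 regulators of hepatocyte genes, 7 were lower and 1, the thyroid hormone receptor gene Thra, was higher (0.43, adjusted p = 0.0385), beside 39.8% of all genes called in either direction. The other thyroid hormone receptor gene, Thrb, was among the lower ones (−0.97, edgeR adjusted p = 5.48e-05). With libraries scaled by their totals alone 5 of the 16 were called. Onecut1, whose core motif is marked in the promoters above, was at 7.19 ± 2.37 CPM in PF and 2.34 ± 0.877 CPM in AF livers (log2 fold change −1.62, SE 0.266, edgeR adjusted p = 0.000676). The glucocorticoid receptor gene Nr3c1 was lower (−0.59, adjusted p = 0.000312, not called under scaling by library totals), and the largest falls were in the coactivator gene Ppargc1a (−1.89), Onecut1 and the fatty acid receptor gene Ppara (−1.34). Zhx2, a homeobox factor known to act on Mup genes, and Hnf4a, a master regulator of hepatocyte genes, were not called (−0.09 and −0.23), and both values were above 0 when libraries were scaled by their totals alone (0.23 and 0.08). Without AF6, Hnf4a was called lower (−0.41, adjusted p = 0.0389 in edgeR).

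**Figure D5:**
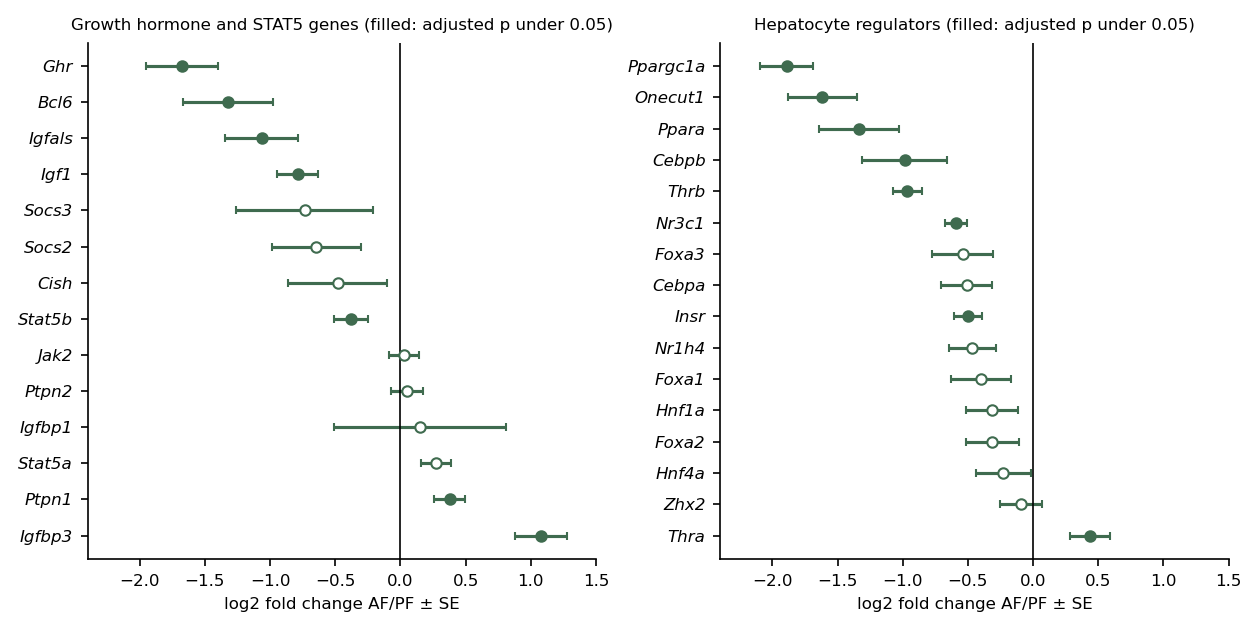
Log2 fold change of AF against PF (points, with SE bars) for the tested genes of the growth hormone and STAT5 list (left) and of the list of hepatocyte regulators (right). Filled points have an adjusted p under 0.05. Ghr and Bcl6 are lowest on the left and Ppargc1a and Onecut1 on the right, and Jak2 and Zhx2 lie close to 0.

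Genes with male-biased expression in mouse liver, outside the Mup family, were mostly lower, 20 of 24 tested with 0 higher and a median log2 fold change of −2.75, beside 17.8% of all genes lower. Hsd3b5, a steroid dehydrogenase, was at 113 CPM in PF and 0.0358 CPM in AF livers, and Slco1a1, an organic anion transporter, at 345 and 0.167 CPM. Their log2 fold changes were −11.60 and −11.13, and −12.47 and −12.11 without AF6. Elovl3, a fatty acid elongase, was at 157 ± 94.5 and 7.12 ± 12.5 CPM (log2 fold change −4.48, adjusted p = 0.00527, and −5.93 without AF6). Serpina1e, a protease inhibitor of the alpha-1-antitrypsin group, had a log2 fold change of −5.83 and Moxd1 one of −7.79 (SE 1.34). Moxd1 varied widely between PF livers (95.8 ± 116 CPM), and only 5 of the 7 AF livers lay outside the PF range. Cyp2d9 was not called (−0.91, adjusted p = 0.201). Of 25 listed female-biased genes 17 were tested. Of these, 12 were higher and 0 lower, with a median of 2.19, beside 22.0% of all genes higher. Genes that are low in 1 group enter the test through the group in which they are higher. Cyp2b13, at 0.104 CPM in PF and 53.5 CPM in AF livers, is an example. The counts and medians of both lists are therefore descriptions. Cyp2a4, a steroid hydroxylase gene, rose from 0.433 to 894 CPM (log2 fold change 10.97, adjusted p = 3.5e-05, with 10.25 without AF5 and 11.59 without PF4), and Cyp2b9 rose with a log2 fold change of 5.96 (adjusted p = 0.000186). Both have close paralogues, so their own share of reads is uncertain. Cux2, a female-biased repressor gene, was below the filter, at 0.113 CPM in PF and 0.617 CPM in AF livers. AF2, in which Mup levels were retained, had the lowest Cyp2a4 of the AF livers (54.8 CPM), whereas AF6 had 306 CPM.

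Among 8334 genes outside the family whose mean log2 CPM was 3 or higher, the profile over the 12 livers most like that of Mup20 was that of Keg1, an acyltransferase-like gene, followed by Serpina3k and Nudt7 (root mean square difference of 0.570, 0.768 and 0.824 in log2 CPM relative to the PF mean). For Mup3 they were Ces3a (0.706), Susd4 and Hectd2os. For Mup21 they were Sult2a8 (0.800), Elovl3 and Ces3b, and for Mup5 C8a (0.291), C4a and Adh4. No gene was nearest to more than 1 member.

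Of 18 listed genes of other lipocalins 9 were tested, of which 4 were lower and 0 higher (2 called without PF1 or PF3, and 7 when every gene with at least 1 read was tested), with a median log2 fold change of −0.39, beside 17.8% of all genes lower. Orm1 and Orm2, the acute phase orosomucoids, were lower (−0.93 and −1.27), as were C8g (−0.96) and Fabp1 (−1.43), which is an intracellular fatty acid carrier rather than a secreted lipocalin. Lcn2 was at 1309 ± 428 CPM in PF and 1670 ± 1035 CPM in AF livers (log2 fold change 0.35, adjusted p = 0.462), and Rbp4, the retinol carrier, was not called (0.20, adjusted p = 0.432), but was called higher with library totals (0.54, adjusted p = 0.0117).

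Markers of hepatocytes and other cells are given beside the Mup values, and their counts stand against 17.8% lower and 22.0% higher over all genes tested. Of 20 hepatocyte markers 6 were lower and 0 higher (12 called without AF6, 10 in limma-voom and 14 in DESeq2), with a median log2 fold change of −0.59, and their summed level was 177790 to 235074 CPM in PF and 105580 to 192039 CPM in AF livers. Alb itself was not called in edgeR (−0.60, adjusted p = 0.164) but was in DESeq2 (−0.62, adjusted p = 0.00775). Stellate cell and fibroblast markers were higher in 10 of 11 (summed level 182 to 446 CPM in PF, 391 to 1150 CPM in AF livers), Kupffer cell markers in 6 of 8 (760 to 1099 and 1050 to 3191 CPM), recruited macrophage markers in 6 of 10 (96.1 to 331 and 199 to 1773 CPM) and bile duct markers in 4 of 6 tested (58.7 to 253 and 79.6 to 1112 CPM). Bile duct markers were called in 1 of 6 with limma-voom. Markers with few reads, such as Krt19, enter the test through the group in which they are higher, so these counts are descriptions. B cell markers were lower in 3 of 7 and higher in 0 (median log2 fold change −0.99; 78.5 to 421 CPM in PF, 21.2 to 126 CPM in AF livers), and 1 of the 7 was called without PF5. Of T and NK cell markers 1 of 10 was lower, of neutrophil markers 0 of 10 were called in edgeR (3 at an unadjusted p under 0.05, 2 called in DESeq2, 0 in limma-voom and 3 without PF2), of sinusoidal endothelium markers 1 of 9 was higher (3 called without PF4, 2 without AF5 and 7 with library totals) and of red blood cell markers 1 of 5 tested was lower (3 called without AF5 and 5 with library totals). The part of these cells in the Mup result was not tested. Set against Alb within a liver, as given above, reads on the members were below every PF value in each AF liver. Of 25 abundant secreted hepatocyte proteins 7 were lower and 0 higher, with a median of −0.51. In DESeq2 15 were called, without AF6 12, and without PF1, PF2 or AF3 3.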

How the data were processed

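Liver RNA isolated with TRIzol was enriched for poly-A RNA by the authors. They checked the untrimmed reads with FastQC 0.10.1, aligned them to mm10 (GRCm38) with TopHat2 2.0.13 and deposited raw counts per Ensembl gene for 12 libraries, made with HTSeq 0.10.0 per the submitters' processing notes. The annotation, the strand setting and the treatment of reads with several alignments are not given in the sources used here. Of 54232 gene IDs, 54165 were named with GENCODE M21.

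Counts were tested in R 4.3.3 with edgeR 4.0.16 (quasi-likelihood test, TMM, filterByExpr by group, Benjamini-Hochberg over 14168 genes, threshold 0.05), and SEs were derived from the F statistic. CPM and RPKM use TMM-scaled library sizes. Permutation tests were exact and two-sided, on log2(CPM + 0.1) or, for ratios of members, on log2(count + 0.5). A library of 24129900 to 30578639 reads gives narrow counting intervals (the share of reads on Mup genes in AF1 has a 95% Wilson interval of 0.0373 to 0.0388%), which cover counting error only. Replicates are separate mice.

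Named genes were the 6 members, the other Mup genes with the highest counts, set genes of each list, and up to 3 more per list with the largest called change. For each tested member, the 3 genes outside the family with the smallest root mean square difference were also named. The members and lists were chosen with earlier results of these data known, and 1 gene of the regulator list is not reported here. Sequences came from GENCODE M21 transcripts and the RefSeq promoter table, and windows of 50, 75 and 100 bases were compared on both strands. On simulated counts over 13988 genes, edgeR recovered 49 of 67 genes changed by 1 on the log2 scale and 67 of 67 changed by 2. It made 12 false calls. The changed genes had a mean above 1 CPM, and both groups had the same dispersion. Recovery therefore does not carry over to Mup4, Mup5 and Mup6, or to the wider AF spread of Mup20, Mup3 and Mup21. Alternatives used DESeq2 1.42.0, limma 3.58.1, other scaling factors and filters, summed paralogues and a replicate block.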

Additional observations from a re-analysis of the deposited data

Results flagged for a closer look

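The 7 AF livers held a single read of Mup4, in AF replicate 2 (0.0385 CPM), and 0 reads in the other 6. This was the 1 value beyond Dixon's limit among 18 groups of values checked, where chance gives about 0.9. With 0 reads in the other 6 livers, any single read lies beyond that limit, so the flag says nothing about this liver. A difference of 1 read is within counting error.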

How the results depend on the processing

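Mup5, Mup20 and Mup21 stayed lower and past the threshold under all 22 alternatives run for each. Mup3 stayed lower in all 22 and lost the call in 9 leave-one-out fits, with log2 fold changes of −3.08 to −2.22 over all leave-one-out fits and adjusted p from 0.00367 to 0.0832 over all alternatives. The cause was not tested. The number of called members was 3 to 4 over the leave-one-out fits and 4 to 6 otherwise. Leaving out AF6 moved Mup20 to −3.10 and Mup21 to −4.70, and leaving out AF2 moved Mup3 to −3.08, each over 1.5 times in fold. With limma-voom, which averages log values, Mup3 was −3.77, Mup20 −3.12 and Mup21 −6.03. The pairs of members that differed in their change numbered 0 to 6 over the leave-one-out fits and 5 with a pseudocount of 2. Scaling by library totals shifted the median of all genes to 0.398 and the share of higher calls from 55.3 to 87.3% (7391 calls), and it turned the sign of Hnf4a (0.084) and Zhx2 (0.234). The other reversals were of differences that had not passed a test. They were Jak2 in 3 leave-one-out fits (−0.049 to 0.087 over all of them), Lcn2 in 1 (−0.010 to 0.484), the Mup3 to Mup5 ratio as an edgeR difference (0.15), and the Mup5 to Mup20 ratio in 4 leave-one-out fits (−0.235 to 0.527) and as an edgeR difference (−0.17). Hepatocyte markers called numbered 14 rather than 6 in DESeq2.

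Replicate numbers did not pair the livers, since deviations of same-numbered livers correlated at −0.0749 to 0.117. With the replicate number as a block, which leaves out AF6 and AF7, 6256 genes were called rather than 5634, 4 members remained lower, and Mup3, Mup5, Mup20 and Mup21 were at −4.87, −3.30, −3.48 and −6.83. In that fit 14 hepatocyte regulators were called rather than 8, Zhx2 (−0.29, adjusted p = 0.0499) and Hnf4a (−0.49, adjusted p = 0.0132) among them, 14 hepatocyte markers, 13 secreted proteins, 5 pseudogenes, Mup18 (−3.45, adjusted p = 0.00899) and Cyp2d9 (−2.003, adjusted p = 0.00868), with Mup7 at −9.12. Counts of 0 to 25 reads limit Mup4, Mup5 and Mup6.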
